A study of Mus musculus with 10 samples.

Results

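Interferon-stimulated genes were examined in the left atrium of adult mice after removal of Tbx5, which encodes a cardiac transcription factor of the T-box family. The group was a fixed list of 50 targets and regulators of type I and type II interferon, matched by gene symbol to a table of 23337 genes, and all 50 symbols were found in it. All 50 also passed the filter on low counts, which left 13191 genes for testing. The design sets knockout against control left atrium to find the transcripts that depend on Tbx5 in the adult.

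RNA was sequenced in 10 libraries, each labelled as its own animal. The 6 libraries labelled Tbx5 knockout came from 3 females and 3 males of genotype Tbx5 null (Tbx5-/-), in which a tamoxifen-inducible Cre recombinase under the ubiquitous R26 promoter had excised exon 3 of the gene. Daily doses of 0.167 mg tamoxifen were injected over 3 days, and the atria were collected 1 week afterwards. The 4 control libraries came from 2 females and 2 males labelled wild type (Tbx5 +/+), and the labels do not say whether these animals carried the Cre or received tamoxifen. Both groups were of mixed C57B6 and 129 background, and their age was 8 to 10 weeks by the animals' own labels but 6 to 8 weeks by the extraction text. Because the promoter is ubiquitous, the excision was not limited to 1 cell type.

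Interferons are secreted proteins that warn cells of infection or of misplaced nucleic acid. Type I interferons bind the receptor IFNAR, whose kinases JAK1 and TYK2 start a signal that leads a complex with STAT2 and IRF9 to interferon-stimulated response elements in promoters. Type II interferon binds IFNGR, signals through JAK1 and JAK2, and acts mainly at GAS elements. The genes switched on in this way sense, degrade or trap viral nucleic acid and proteins, and many are expressed at a low level in healthy tissue, macrophages included.

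Assigned reads numbered 5789632 to 7355782 per knockout library and 5701670 to 7697556 per control library. Tbx5 itself had 1952 ± 336 normalized counts in knockout libraries and 939 ± 125 in control libraries (SD, n = 6 and 4). A count over the whole gene does not measure the loss of exon 3, so it checks nothing about the labels, and the direction of each difference given here rests on the labels. The cardiomyocyte genes Myh6, Tnnt2 and Actc1 were among the abundant genes of every library, and the summed level of 6 cardiomyocyte markers ran from 244157 to 340396 normalized counts in knockout libraries and from 308075 to 352877 in control libraries. Levels are the deposited normalized counts, log2 fold changes are knockout over control with their standard error, and p-values are from the edgeR quasi-likelihood test with Benjamini-Hochberg adjustment over 13191 genes.

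More of the interferon-stimulated genes were higher than lower in the knockout. Of the 50 genes, 28 (56%) rose at an adjusted p under 0.05, against 20.8% of all tested genes. Falls past the same threshold were seen in 2 of the 50 (4%), Ifih1 and Parp14, against 21.8% of all tested genes. In either direction 30 of the 50 passed, against 42.6% of all tested genes. The median log2 fold change was 0.51 over the 50 genes and 0 over all tested genes. With scaling to library size only, the median of all tested genes moved to 0.14, the calls over all genes were 3942 higher and 2020 lower in place of 2741 and 2881, and those among the 50 were 34 and 1. In 22 of the 50, all 6 knockout libraries lay above all 4 control libraries, an order found in 16.3% of all tested genes. The reverse order held for Ifih1 alone among the 50 and for 15% of all tested genes. The rises were uneven: Oas1a, Xaf1, Ifi27l2a and Mx1 stood more than 1.8 log2 units above the control level, while Irf1, Gbp2 and Dtx3l lay within 0.2 log2 units of it.

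**Figure D1:**
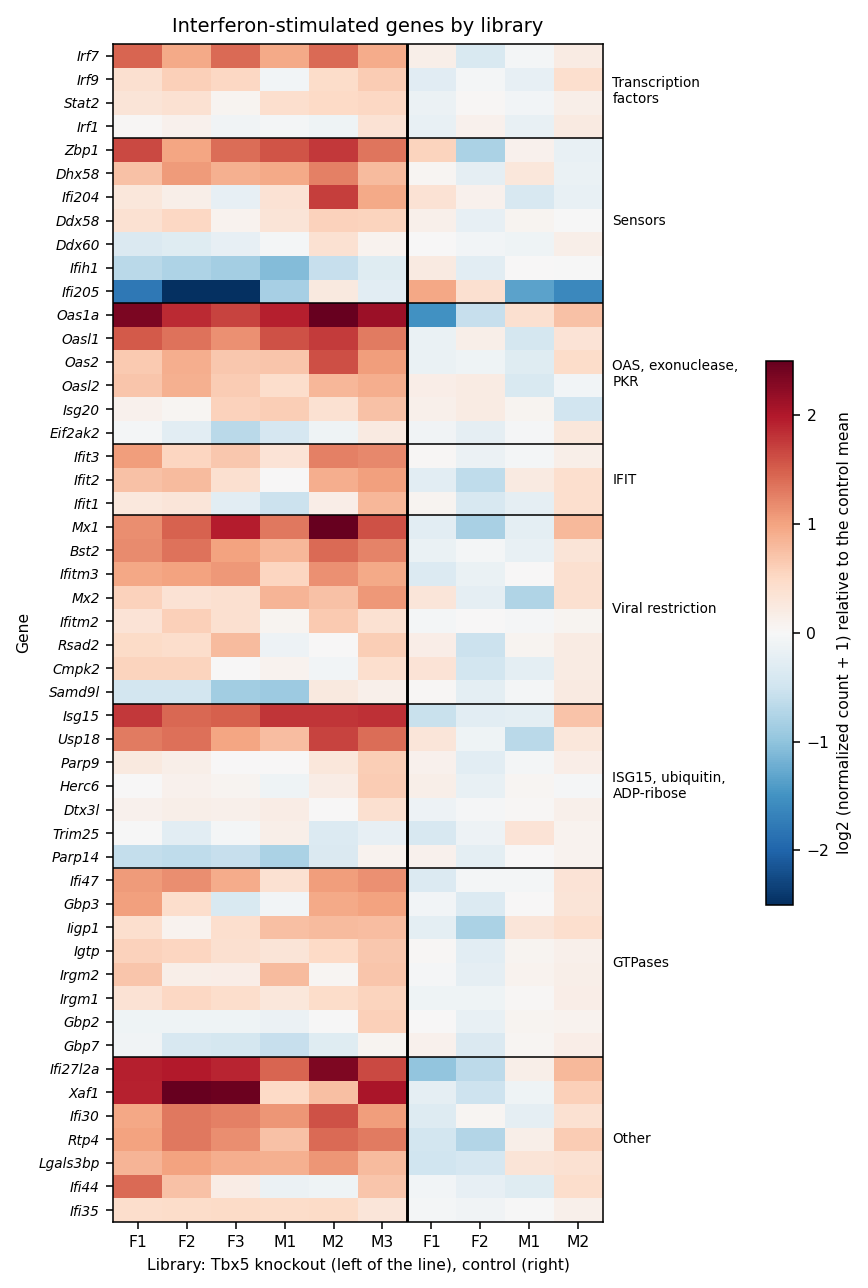
Level of each of the 50 genes in each library, as the log2 of the normalized count plus 1 relative to the control mean, with the 6 knockout libraries left of the line and the 4 control libraries right of it. Colours end at 2.5 log2 units in either direction, and rows are grouped by role. Irf7, Zbp1, Bst2, Isg15, Ifi27l2a and Ifi30 were red in all 6 knockout libraries, and Ifi205 was lowest in the knockout females and highest in the control females.

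**Figure D2:**
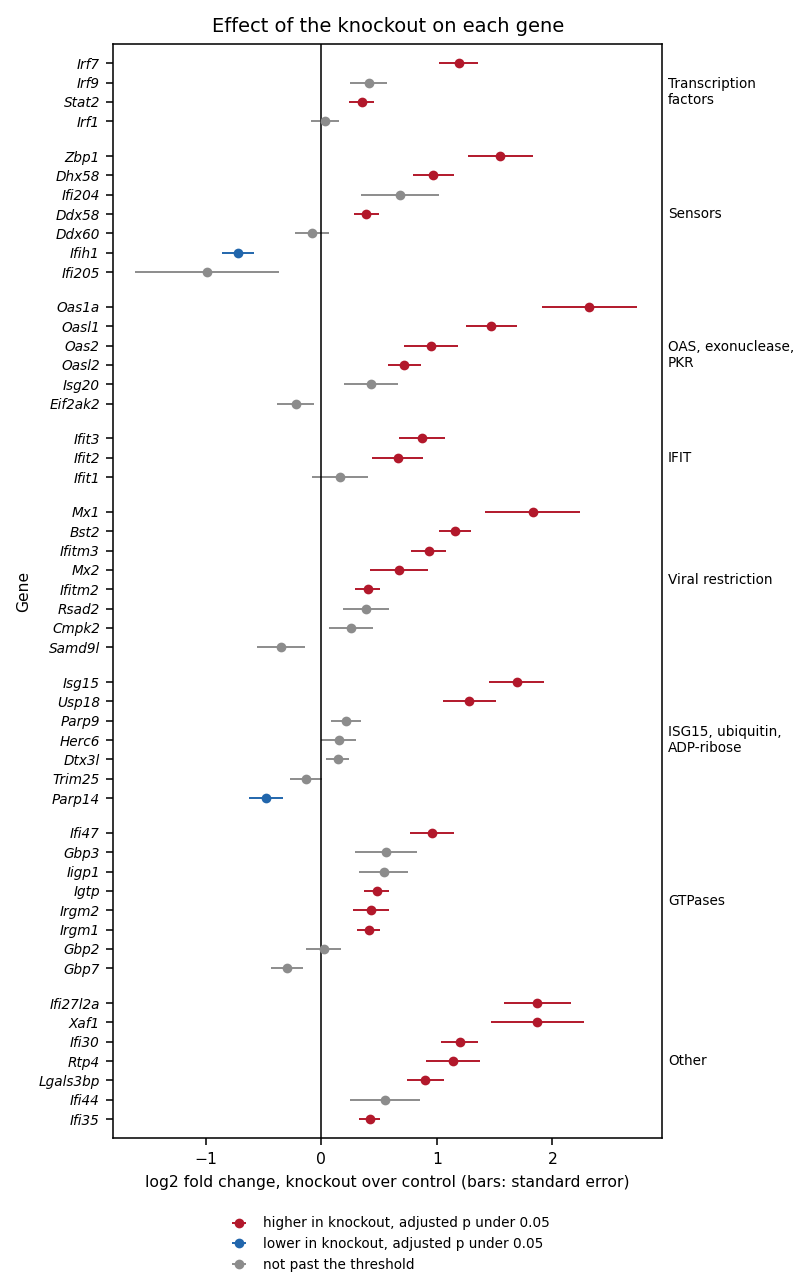
Log2 fold change of each gene, knockout over control, with its standard error, grouped by role. Red marks the 28 genes higher in the knockout, blue the 2 lower, and grey the 20 that did not pass an adjusted p of 0.05.

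The response element bound by the complex that holds STAT2 and IRF9 was looked for in the promoters, as a description. The genes were chosen as interferon targets, and type I interferon acts through this element. Its share among them therefore follows from the choice and says nothing about these libraries. RefSeq promoter windows (GRCm38.p6, 250 bases before to 50 bases after the start of transcription) were at hand for 38 of the 50 genes and for 15725 genes of the table. The core GAAANNGAAA, or TTTCNNTTTC on the other strand, was present in 20 of the 38 (52.6%) and in 610 of the 15725 (3.88%). The GAS core TTCNNNGAA, the same on both strands, was present in 11 of the 38 (28.9%) and in 9.2% of the 15725. Some genes had more than 1 window, and a match in any of them was counted. Of the 38 genes, the element was found in 11 of 20 that rose, in the 1 that fell (Ifih1), and in 8 of 17 that did not pass. The promoters of Bst2, Isg15 and Ifitm3 are shown because these had the smallest adjusted p among genes that hold the element. Each is written in the direction of its gene, with the bases of matched response elements in capitals.
Bst2 (chr8:71537423-71537722, minus strand): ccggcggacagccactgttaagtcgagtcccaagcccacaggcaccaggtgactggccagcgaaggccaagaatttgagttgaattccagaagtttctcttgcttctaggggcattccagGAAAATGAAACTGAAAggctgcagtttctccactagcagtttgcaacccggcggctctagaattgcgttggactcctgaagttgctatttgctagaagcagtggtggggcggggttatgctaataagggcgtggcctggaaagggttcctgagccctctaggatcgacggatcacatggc
Isg15 (chr4:156200769-156201068, minus strand): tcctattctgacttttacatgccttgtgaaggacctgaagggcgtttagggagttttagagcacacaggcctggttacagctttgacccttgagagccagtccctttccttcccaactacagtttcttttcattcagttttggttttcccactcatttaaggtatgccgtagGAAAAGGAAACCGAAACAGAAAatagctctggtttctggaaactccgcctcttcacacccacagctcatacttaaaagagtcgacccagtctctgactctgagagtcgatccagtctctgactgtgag
Ifitm3 (chr7:141010695-141010994, minus strand): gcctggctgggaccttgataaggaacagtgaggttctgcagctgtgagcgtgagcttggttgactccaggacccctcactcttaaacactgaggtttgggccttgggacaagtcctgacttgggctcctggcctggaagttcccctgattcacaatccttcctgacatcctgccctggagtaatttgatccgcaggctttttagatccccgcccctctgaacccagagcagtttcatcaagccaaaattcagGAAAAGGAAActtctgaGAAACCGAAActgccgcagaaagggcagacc

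In Bst2 and Isg15 the matches ran into one another and formed a single stretch before the start of transcription, and in Ifitm3 they lay just after it. Shorter excerpts with up to 10 bases on either side of the element, cut where the window ends, show genes that rose, fell and did not pass. Oas1a and Igtp rose, Ifih1 fell, and Ifit1 and Gbp2 did not pass, and the same core was present in each.
Oas1a (chr5:120907520-120907555, minus strand): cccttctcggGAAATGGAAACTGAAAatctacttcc
Igtp (chr11:58199512-58199541, plus strand): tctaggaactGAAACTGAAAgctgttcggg
Ifih1 (chr2:62646206-62646233, minus strand): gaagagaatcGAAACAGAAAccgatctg
Ifit1 (chr19:34640775-34640823, plus strand): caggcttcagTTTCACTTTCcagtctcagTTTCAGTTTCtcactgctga
Gbp2 (chr3:142620594-142620623, plus strand): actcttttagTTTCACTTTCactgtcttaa

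A match is a stretch of letters and not a measured binding site. Windows without a match included those of Irf7, Ifi30, Lgals3bp, Oasl1, Oasl2 and Xaf1, all of which rose.

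Among the 4 transcription factors, Irf7 and Stat2 rose (50%, beside 20.8% of all tested genes), and Irf9 and Irf1 did not pass the test. Irf7 (chromosome 7, 141262706 to 141266481, minus strand, GRCm38) encodes the factor that amplifies type I interferon production and is itself an interferon target. It had 117 to 171 normalized counts in knockout libraries, with a median of 143, against 68.2 and 47.1 in control females and 59.1 and 71.1 in control males. The groups did not overlap, and the log2 fold change was 1.19 ± 0.17 (adjusted p = 8.75e-05). Stat2, a transcription factor of type I signalling, ran from 157 to 215 with a median of 197 in knockout libraries, against 135, 153, 143 and 165 in control libraries. Knockout F3 lay inside the control range, and the log2 fold change was 0.35 ± 0.11 (adjusted p = 0.0174). Irf9, the DNA-binding subunit of the same complex, ran from 168 to 274 with a median of 248 in knockout libraries, against 145, 172, 153 and 238 in control libraries. Knockout M1 was the low library and control M2 the high one, and the log2 fold change of 0.41 ± 0.16 just missed the threshold (adjusted p = 0.0515). Without control M2 it was 0.62 (adjusted p = 0.00597), and without knockout M1 it was 0.51 (adjusted p = 0.00782). DESeq2 gave Irf9 an adjusted p of 0.0323. Irf1, an early target of type II interferon, averaged 241 ± 31.4 in knockout libraries and 233 ± 33.7 in control libraries (SD, n = 6 and 4), with a log2 fold change of 0.03 ± 0.12 (adjusted p = 0.884).

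The sensors of nucleic acid did not move together. Of 7 genes, Zbp1, Dhx58 and Ddx58 rose (42.9%), Ifih1 fell, and Ifi204, Ifi205 and Ddx60 did not pass. Over all tested genes 20.8% rose and 21.8% fell. Zbp1 (chromosome 2, 173206612 to 173218923, minus strand) encodes a sensor of left-handed nucleic acid that can start necroptosis. Its level was 20.5 to 35.7 with a median of 29.3 in knockout libraries, against 15 and 5.23 in control females and 10.6 and 8.47 in control males. No control library reached the lowest knockout library, and the log2 fold change was 1.55 ± 0.28 (adjusted p = 0.000536). Dhx58, which encodes LGP2, a regulator of the RIG-I-like receptors, had 37.4 to 54.1 with a median of 42.7 in knockout libraries, against 23.1, 18.8, 27.2 and 19.5 in control libraries. Again the groups were apart, with a log2 fold change of 0.97 ± 0.18 (adjusted p = 0.000741).

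Ifih1 (chromosome 2, 62595798 to 62646255, minus strand) encodes MDA5, the receptor for long double-stranded RNA, and moved the other way. It had 90.2 to 155 normalized counts with a median of 116 in knockout libraries, against 224, 160, 195 and 191 in control libraries. Every knockout library lay below every control library, and the gene was 1.65-fold lower, a log2 fold change of -0.72 ± 0.14 (adjusted p = 0.00113). Ddx58, which encodes RIG-I, the receptor for short RNA with a triphosphate end, averaged 281 ± 34.1 in knockout libraries and 211 ± 20.6 in control libraries (SD, n = 6 and 4). Its rise of 0.39 ± 0.11 log2 units (adjusted p = 0.0122) stood beside the fall of Ifih1, so the genes of these related receptors differed in direction. Ddx60, a helicase of the same pathway, was at -0.08 ± 0.15 (adjusted p = 0.688).

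In the group of oligoadenylate synthetases, RNA exonuclease and the kinase PKR, 4 of 6 genes rose (66.7%) and none fell past the threshold. Among all tested genes 20.8% rose and 21.8% fell. Oasl1 (chromosome 5, 114923240 to 114937915, plus strand), an OAS-like protein that in the mouse restrains translation of Irf7, had 30.4 to 46.7 with a median of 37.7 in knockout libraries, against 11.6, 14.6, 9.46 and 16.9 in control libraries. The highest control library was well below the lowest knockout library (log2 fold change 1.47 ± 0.22, adjusted p = 0.000117). Oas1a, which makes the oligoadenylate that activates RNase L, showed the largest fold change of the 50 genes. Its level was 19.0 to 46.7 with a median of 24.5 in knockout libraries, against 1.16 and 3.14 in control females and 7.1 and 9.31 in control males. This was a 5.0-fold difference (log2 fold change 2.32 ± 0.41, adjusted p = 0.000503), on few reads in the control group. Oasl2 was less changed, at 119 to 166 with a median of 149 in knockout libraries, against 98.3, 100.4, 67.4 and 83.8 in control libraries (log2 fold change 0.72 ± 0.14, adjusted p = 0.000874).

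Oas2, another synthetase, rose by a log2 fold change of 0.95 ± 0.23 (adjusted p = 0.00409), with knockout M2 far above the other knockout libraries. Isg20, an RNA exonuclease, averaged 24.7 ± 4.84 in knockout libraries and 18.1 ± 3.66 in control libraries, and its log2 fold change of 0.43 ± 0.23 did not pass (adjusted p = 0.143). Eif2ak2, which encodes PKR, the kinase that halts translation on double-stranded RNA, was at -0.22 ± 0.16 (adjusted p = 0.293).

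The 3 IFIT genes, whose proteins bind viral RNA and block its translation, lie near one another on chromosome 19 and gave unlike results. Ifit3 rose, with 63.3 to 122 normalized counts and a median of 93.0 in knockout libraries, against 50.9, 45.0, 48.5 and 55.9 in control libraries (log2 fold change 0.87 ± 0.20, adjusted p = 0.00277). Its groups did not overlap. Ifit2 had 123 to 249 with a median of 208 in knockout libraries, against 102 and 78.4 in control females and 143 and 164 in control males. Knockout M1, at 123, and knockout F3, at 161, lay within the control range. The log2 fold change of 0.66 ± 0.22 (adjusted p = 0.0253) missed the threshold without control F1 (0.60, adjusted p = 0.0713) or without control F2 (0.52, adjusted p = 0.0741). Ifit1, which recognises the cap of foreign RNA, did not pass. It had 53.9 to 141 with a median of 92.1 in knockout libraries, against 82.1, 59.6, 67.4 and 106 in control libraries. Both groups covered much the same range, and the log2 fold change was 0.16 ± 0.24 (adjusted p = 0.618). The RNA sequences of this family are alike, and reads may have been shared among its members.

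Genes that restrict the entry, replication or release of viruses rose in 5 of 8 cases (62.5%), and none fell past the threshold. The shares of all tested genes were 20.8% higher and 21.8% lower. Bst2 (chromosome 8, 71534255 to 71537456, minus strand) encodes tetherin, which holds budding viruses at the cell surface, and had the smallest adjusted p of the 50 genes. Its level was 284 to 427 with a median of 372 in knockout libraries, against 142 and 154 in control females and 141 and 201 in control males. The gap between groups was larger than the range of the control libraries, with a log2 fold change of 1.16 ± 0.14 (adjusted p = 2.18e-05). Ifitm3, a membrane protein that blocks viral fusion, had 567 to 861 with a median of 776 in knockout libraries, against 306, 346, 394 and 516 in control libraries. Knockout M1, at 567, was the low library, and it still lay above the controls (log2 fold change 0.93 ± 0.15, adjusted p = 0.000198). Mx1, a dynamin-like GTPase that traps viral components, had 11.1 to 29.3 with a median of 14.6 in knockout libraries, against 3.47, 2.09, 3.55 and 8.47 in control libraries. The rise was 3.56-fold (log2 fold change 1.83 ± 0.41, adjusted p = 0.00289), on low levels in both groups, and without control M2 the log2 fold change was 2.45.

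Ifitm2 rose by 0.40 ± 0.11 (adjusted p = 0.00863), and with offsets for GC content and length it was 0.20 (adjusted p = 0.0881). On the annotation, 40.9% of its exonic bases overlap the exons of another gene on the same strand. Mx2 rose by 0.67 ± 0.25 (adjusted p = 0.0456). Its adjusted p lay between 0.0579 and 0.119 when any one of control M1, control F2 or knockout F1, M1, M2 or M3 was left out. Rsad2, which encodes viperin, was at 0.39 ± 0.20 (adjusted p = 0.145), and at 0.49 without knockout M1 (adjusted p = 0.0446). Its neighbour Cmpk2, a nucleotide kinase, was at 0.26 ± 0.19 (adjusted p = 0.289). Samd9l, a translation inhibitor, averaged 252 ± 87.1 in knockout libraries and 316 ± 41.2 in control libraries, a log2 fold change of -0.35 ± 0.21 (adjusted p = 0.195).

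Genes of the ISG15 system, ubiquitin ligases and ADP-ribose modifiers gave the lowest median of the 8 role groups, 0.15. Of the 7 genes, 2 were higher (28.6%) and 1 lower, beside 20.8% and 21.8% of all tested genes. Isg15 (chromosome 4, 156199424 to 156200818, minus strand) encodes a ubiquitin-like protein that is attached to other proteins. Its level was 40.0 to 52.4 with a median of 50.5 in knockout libraries, against 9.25 and 11.5 in control females and 11.8 and 23.7 in control males. Knockout libraries were close together and far from the controls, with a log2 fold change of 1.69 ± 0.24 (adjusted p = 9.99e-05). Usp18, the protease that removes ISG15 and also dampens signalling at the type I receptor, had 43.6 to 82.5 with a median of 65.0 in knockout libraries, against 31.2, 23.0, 15.4 and 30.5 in control libraries. It too was without overlap (log2 fold change 1.28 ± 0.23, adjusted p = 0.000558). Among the genes outside the list, the ISG15 conjugation enzymes moved the same way: Ube2l6, the conjugating enzyme, by 0.90 ± 0.13 (adjusted p = 9.68e-05) and Uba7, the activating enzyme, by 0.40 ± 0.09 (adjusted p = 0.00256), the second being named after its value was seen.

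Parp14, a mono-ADP-ribosyltransferase, fell. It had 215 to 392 with a median of 247 in knockout libraries, against 401, 312, 375 and 394 in control libraries. Knockout M3 lay within the control range while the other 5 knockout libraries lay below it, and the log2 fold change was -0.48 ± 0.15 (adjusted p = 0.0205). The call was lost without control M1 (adjusted p = 0.0537), control M2 (adjusted p = 0.0601) or control F1 (adjusted p = 0.0691). With offsets for GC content and length the value was -0.21 (adjusted p = 0.273), and with scaling to library size only it was -0.34 (adjusted p = 0.0676). Parp9 and its partner ubiquitin ligase gene Dtx3l, which are neighbours of Parp14, were at 0.21 ± 0.13 (adjusted p = 0.222) and 0.14 ± 0.10 (adjusted p = 0.27). Herc6, the main ligase for ISG15 in the mouse, was at 0.15 ± 0.15 (adjusted p = 0.457), and Trim25, a ubiquitin ligase of RIG-I signalling, was at -0.13 ± 0.14 (adjusted p = 0.46).

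Among 8 immunity-related GTPases and guanylate-binding proteins, which attack the vacuoles of intracellular microbes, the 4 that rose were all immunity-related GTPases. Those 4 were 50% of the group, beside 20.8% of all tested genes. None fell past the threshold, beside 21.8% of all tested genes. Ifi47 (chromosome 11, 49076587 to 49096974, plus strand) had 47.7 to 83.7 with a median of 77.2 in knockout libraries, against 28.9, 35.6, 35.5 and 46.6 in control libraries. Knockout M1, at 47.7, was just above the highest control (log2 fold change 0.96 ± 0.19, adjusted p = 0.00103). Irgm1, a regulatory GTPase that restrains the effector ones, had 246 to 298 with a median of 276 in knockout libraries, against 187, 188, 207 and 227 in control libraries. Its groups were apart although the difference was small (log2 fold change 0.41 ± 0.10, adjusted p = 0.00324). Igtp, another regulatory member, had 147 to 188 with a median of 169 in knockout libraries, against 121, 98.3, 123 and 129.5 in control libraries (log2 fold change 0.48 ± 0.11, adjusted p = 0.0034).

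Irgm2 rose by 0.43 ± 0.16 (adjusted p = 0.0482). Its adjusted p was 0.0623 to 0.116 when any one of control M1, F1 or F2 or knockout F1, M1 or M3 was left out, and limma-voom gave 0.0682. Iigp1, an effector GTPase, averaged 373 ± 69.3 in knockout libraries and 252 ± 90.2 in control libraries, a log2 fold change of 0.54 ± 0.21 that did not pass (adjusted p = 0.0523). It passed without control M1 (adjusted p = 0.0377), control M2 (adjusted p = 0.0165) or knockout F2 (adjusted p = 0.0305), and with DESeq2 on all libraries (adjusted p = 0.0291). The guanylate-binding protein genes did not pass: Gbp3 was at 0.56 ± 0.27 (adjusted p = 0.102), Gbp2 at 0.02 ± 0.15 (adjusted p = 0.929) and Gbp7 at -0.30 ± 0.14 (adjusted p = 0.101). Gbp3 passed without knockout F3 (0.72, adjusted p = 0.0195) or M1 (0.68, adjusted p = 0.0391), and Gbp7 passed without control F2 (-0.38, adjusted p = 0.0414) or knockout M3 (-0.38, adjusted p = 0.0342). Members of this family are alike in sequence, so the values of single genes are uncertain.

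The remaining 7 interferon-induced genes had the highest median of the 8 role groups, 1.14. Of these, 6 rose (85.7%), beside 20.8% of all tested genes. Ifi30 (chromosome 8, 70762774 to 70766663, minus strand) encodes a lysosomal thiol reductase that prepares antigens. It had 117 to 182 with a median of 136 in knockout libraries, against 47.4, 61.7, 50.9 and 77.9 in control libraries. The groups were far apart (log2 fold change 1.20 ± 0.16, adjusted p = 6.52e-05). Ifi27l2a, which encodes a small hydrophobic protein, had 823 to 1520.2 with a median of 1143 in knockout libraries, against 150.3 and 191 in control females and 331 and 530 in control males. No overlap was seen, and the log2 fold change was 1.87 ± 0.29 (adjusted p = 0.000178). Per kilobase of annotated exon it had the highest level of the 50 genes in both groups, 2437 normalized counts in knockout libraries and 649.5 in control libraries. Lgals3bp, a secreted glycoprotein that binds galectins, had 358 to 447 with a median of 387 in knockout libraries, against 146, 154, 259 and 270.1 in control libraries (log2 fold change 0.90 ± 0.16, adjusted p = 0.000578).

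Xaf1, a pro-apoptotic protein gene, rose by 1.87 ± 0.40 (adjusted p = 0.00194), but knockout M1, at 69.5, lay below control M2, at 74.5. From male libraries alone Xaf1 was at 0.96 (adjusted p = 0.197). In a model of sex and group it was at 2.69 in females and 0.93 in males. That difference, males minus females, did not pass (-1.76 ± 0.61, adjusted p = 0.48). Rtp4, which encodes a receptor chaperone, rose by 1.14 ± 0.23 (adjusted p = 0.00127), and Ifi35 by 0.42 ± 0.09 (adjusted p = 0.00249) in libraries that did not overlap. Part of the annotated exons of Ifi35 (16.8%) lies opposite an antisense gene and part of those of Rtp4 (13.9%) overlaps another transcript, and the strand setting of the counting is not given in the sources used here. Ifi44 was at 0.55 ± 0.30 (adjusted p = 0.155).

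**Figure D3:**
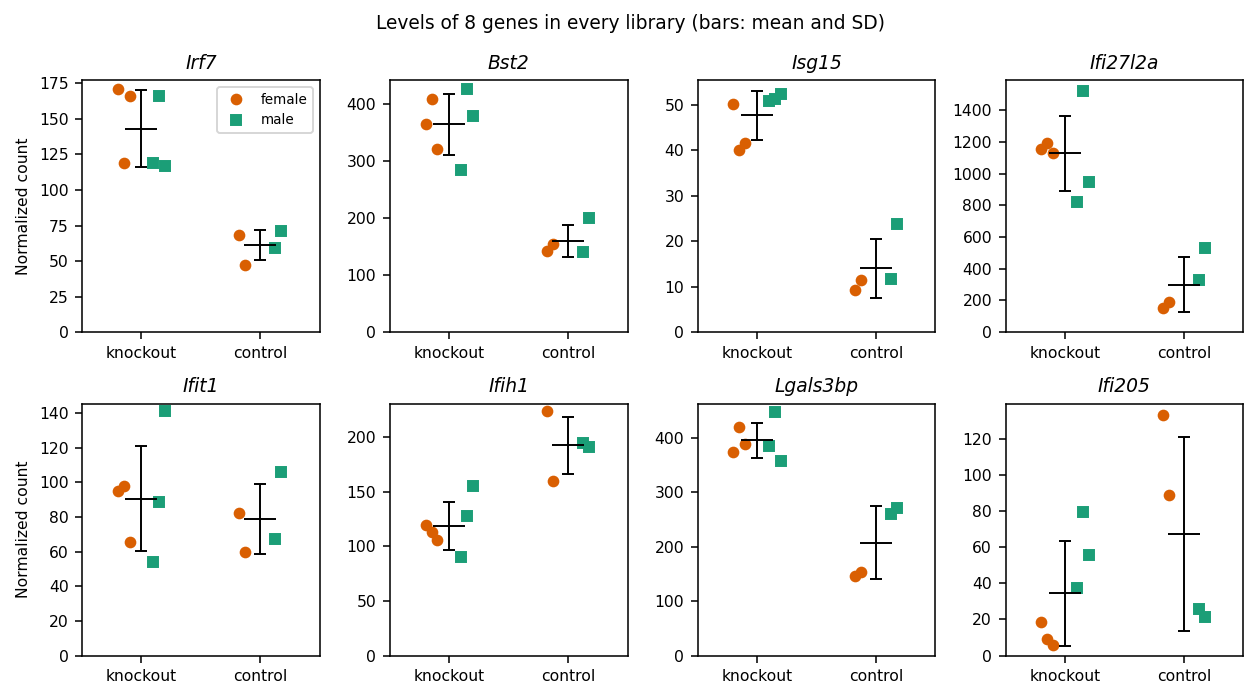
Normalized counts of 8 genes in every library, knockout left and control right, with females as circles and males as squares and the mean and SD as bars. Knockout and control libraries were apart for Irf7, Bst2, Isg15, Ifi27l2a, Ifih1 and Lgals3bp, overlapped for Ifit1, and were ordered by sex in opposite ways for Ifi205.

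The ligands of the pathway were next to absent. Of 17 interferon genes in the table, 12 had no read in any library, and none had more than 2 reads in a single library. Together they had 7 reads in the 6 knockout libraries and 6 reads in the 4 control libraries, and Ifnk, an interferon of skin, accounted for 5 and 3 of these. Ifnb1 had 0 reads in the knockout group and 1 in the control group, and Ifng, type II interferon, had 0 in both. A count of 0 over a group allows up to 0.0767 CPM, the usual depth-scaled count, in the knockout libraries and 0.116 in the control libraries, taking 3 reads as the floor, which covers counting error only. A difference in interferon transcripts was therefore not detectable at this depth.

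Of 8 tested genes for receptors and kinases, 3 rose (37.5%) and 2 fell, counts near the 20.8% higher and 21.8% lower among all tested genes. Ifnar1, a chain of the type I receptor, had 497 to 527 with a median of 502 in knockout libraries, against 375, 339, 375 and 384 in control libraries (log2 fold change 0.43 ± 0.08, adjusted p = 0.000439). Both chains of the type II receptor rose, Ifngr1 by 0.36 ± 0.08 (adjusted p = 0.00242) and Ifngr2 by 0.42 ± 0.09 (adjusted p = 0.00286), the second being named after its value was seen. Of the 3 kinase genes below the receptors, Jak1 and Jak2 fell, and Tyk2 was at -0.13 ± 0.10 (adjusted p = 0.302). Jak1 had 867 to 1241 with a median of 914 in knockout libraries, against 1445, 1386, 1588 and 1346 in control libraries (log2 fold change -0.60 ± 0.11, adjusted p = 0.000563). Jak2 had 196 to 325 with a median of 271 in knockout libraries, against 463, 403, 511 and 389 in control libraries (log2 fold change -0.72 ± 0.13, adjusted p = 0.000614). Neither gene showed overlap between groups.

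The list for sensing upstream of interferon held receptors and genes that pass on their signal, with 13 tested. Among these 13 genes, 4 rose (30.8%) and none fell past the threshold, beside 20.8% higher and 21.8% lower among all tested genes. These were Tlr8 (1.33 ± 0.15, adjusted p = 1.59e-05) and Tlr7 (0.79 ± 0.17, adjusted p = 0.00186), both endosomal receptors for RNA, Tmem173 (0.93 ± 0.20, adjusted p = 0.00173), which encodes STING, and the transcription factor gene Irf5 (0.58 ± 0.18, adjusted p = 0.0195). The other 9 did not pass. Among them, Irf3, Mavs and Tbk1 were at 0.15 ± 0.11 (adjusted p = 0.305), -0.10 ± 0.13 (adjusted p = 0.55) and -0.27 ± 0.11 (adjusted p = 0.0601). Irf8, Aim2 and Myd88 were at 0.25 ± 0.18 (adjusted p = 0.295), 0.54 ± 0.32 (adjusted p = 0.192) and 0.35 ± 0.16 (adjusted p = 0.0964).

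Of 14 tested negative regulators and enzymes that clear nucleic acid, 2 rose (14.3%) and 1 fell, beside 20.8% and 21.8% of all tested genes, and their median was 0.06. Ptpn6, the phosphatase SHP-1 of blood cells, rose by 1.41 ± 0.22 (adjusted p = 0.000185), Rnaseh2c, a subunit of RNase H2, by 0.45 ± 0.14 (adjusted p = 0.0179), and Pias1, a SUMO ligase that dampens interferon signalling, fell by 0.31 on the log2 scale (adjusted p = 0.0317). Socs1, the feedback inhibitor of the JAK kinases, was at -0.03 ± 0.37 (adjusted p = 0.959), and Adar and Trex1, which keep the cell's own nucleic acid from being sensed, were at 0.00 ± 0.10 (adjusted p = 0.998) and -0.01 ± 0.15 (adjusted p = 0.982).

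A second list of 35 tested interferon-stimulated genes outside the 50 had 14 higher and 2 lower, with a median log2 fold change of 0.18. The smallest adjusted p among those that rose belonged to Slfn9 (1.95 ± 0.26, adjusted p = 6e-05), of the Schlafen family, then to Ube2l6, Ly6e, a membrane protein that restricts coronaviruses (0.64 ± 0.10, adjusted p = 0.000166), and Tor3a (0.63 ± 0.12, adjusted p = 0.000633). Gbp4 (-0.74 ± 0.27, adjusted p = 0.0408) and Slfn5 (-0.46 ± 0.14, adjusted p = 0.0193) fell and were named after their values were seen. Share for share, 40% of this list and 56% of the 50 genes were called higher, against 20.8% of all tested genes.

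**Figure D4:**
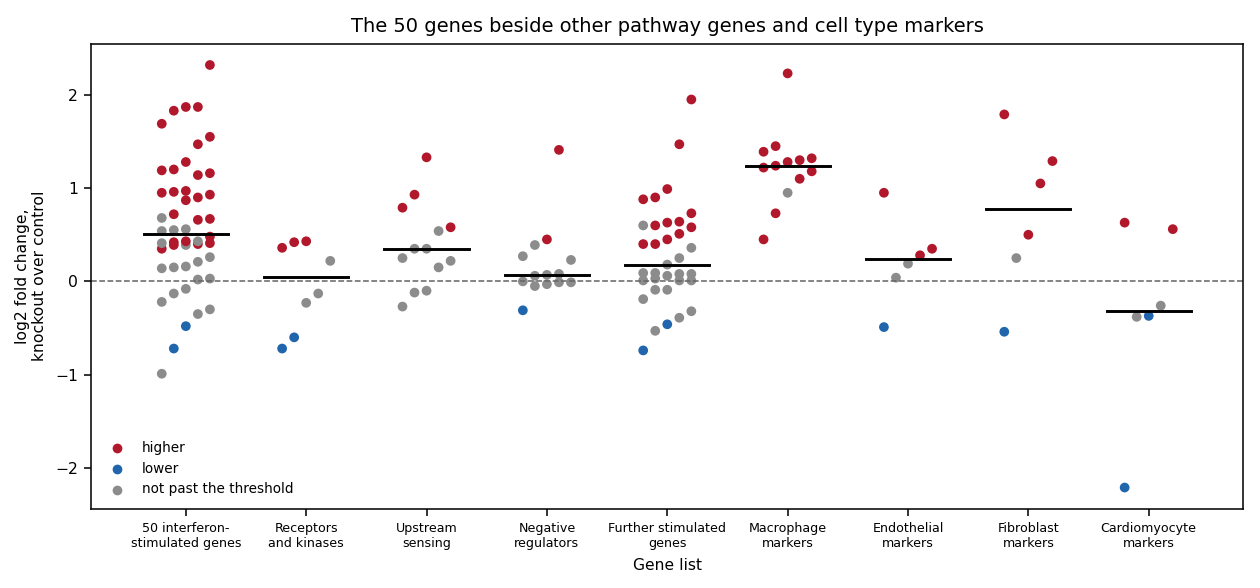
Log2 fold change, knockout over control, of every tested gene in the 50 genes, 4 other lists of the interferon pathway and 4 lists of cell type markers, with the list median as a line and the median of all tested genes, 0, dashed. Macrophage markers had the highest median, 1.24, with 12 of 13 tested genes higher, and the lowest medians of the pathway lists were 0.04 for receptors and kinases and 0.06 for negative regulators.

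Markers of other cell types moved with the groups. Of 13 tested macrophage and monocyte markers, 12 rose, and the summed level of the list was 9209 to 13809.9 normalized counts in knockout libraries and 4151 to 5797 in control libraries. Their median log2 fold change was 1.24. Every tested macrophage gene but Ccr2 passed, and Ly6c2, which was not tested, had 0 to 5 reads per knockout library and 0 to 2 per control library. Of 6 fibroblast markers 4 rose and 1 fell, of 6 endothelial markers 3 rose and 1 fell, and of 6 smooth muscle and pericyte markers 4 rose, beside 20.8% higher and 21.8% lower among all tested genes. Of 6 cardiomyocyte markers Tnnt2 and Actc1 rose, and Myh6 and Ryr2 fell, the last 4.63-fold. Fibroblast markers summed to 22366 to 28682 in knockout libraries and 16265 to 18225 in control libraries, endothelial markers to 7638 to 8335 in knockout libraries and 6607 to 7305 in control libraries, and smooth muscle and pericyte markers to 3866 to 4702 in knockout libraries and 2600.3 to 3075 in control libraries. Neutrophil markers summed to 29 to 50.4 in knockout libraries and 8.1 to 25.1 in control libraries, on 2 tested genes, both higher.

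Lymphoid cells left few reads. None of 5 B cell markers and 1 of 10 T and NK markers (Cd4, 1.08 ± 0.42, adjusted p = 0.0544) were tested, and Cd3e had at most 1 read in any knockout library and at most 2 in any control library. T and NK markers summed to 11.9 to 36.6 normalized counts in knockout libraries and 10.5 to 26 in control libraries, and B cell markers to 6.22 to 15.2 in knockout libraries and 12.7 to 20.3 in control libraries. Siglech, the defining marker of plasmacytoid dendritic cells, had 1 to 10 reads per knockout library and 3 to 21 per control library. Of the other 4 markers of that cell type, Ccr9 fell, at 5.24 ± 2.47 in knockout libraries and 10.4 ± 1.93 in control libraries (edgeR, adjusted p = 0.0337), Cox6a2 is also a gene of striated muscle and made up nearly all of the summed level (4096 to 6433 in knockout libraries and 5248 to 7165 in control libraries), and Klk1 and Pacsin1 had at most 2 reads in any library. In bulk tissue, a change in the number of cells of a type and a change of RNA per cell cannot be told apart. The part of macrophages in the rise of the interferon-stimulated genes was not tested.

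Each sex was also fitted within a model of sex and group. In females 24 of the 50 genes were higher and 2 lower in the knockout, against 13.5% and 14.7% of all tested genes. In males 19 were higher and 1 lower, against 12.8% and 13.2% of all tested genes. A separate fit of the 5 male libraries alone called 13 higher, of which 11 were among the 28, and 0 lower. Of the 13196 genes tested in that fit, 1074 were higher and 987 lower. The difference between the sexes was itself tested, and it passed for 1 of the 50 genes, Ifi205, against 0.205% of all tested genes. Ifi205 (chromosome 1, 174011998 to 174031810, minus strand) belongs to the cluster of Ifi200 genes and encodes a DNA-binding protein with a pyrin domain. In males it had 37.3, 79.7 and 55.6 normalized counts in knockout libraries and 26.0 and 21.2 in control libraries. In females it had 18.7, 9.3 and 5.69 in knockout libraries and 133 and 88.9 in control libraries. The knockout was higher in males, with 1.28 as the log2 fold change (adjusted p = 0.035), and lower in females, with -3.29 (adjusted p = 0.000114). The difference, males minus females, was 4.57 ± 0.57 (adjusted p = 0.00406), and without control M2 it was 4.41 and missed the threshold (adjusted p = 0.0501). With both sexes together the fold change of -0.99 ± 0.62 did not pass (adjusted p = 0.215).

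For the nearby Ifi204 the difference between the sexes did not pass. Its level was 62.2, 162 and 94.9 in knockout males and 36.7 and 42.3 in control males, and 59.5, 54.0 and 41.7 in knockout females and 62.5 and 52.3 in control females. The groups were apart in males, with 1.40 as the log2 fold change (adjusted p = 0.0107), and overlapped in females, at -0.17 (adjusted p = 0.748). The difference in effect, males minus females, was 1.57 ± 0.49 (adjusted p = 0.392). Genes of this cluster are near-identical over long stretches, and reads could have been split between them. For Lgals3bp and Ifi27l2a the estimated effect was smaller in males than in females, at 0.56 and 1.37 for Lgals3bp and at 1.32 and 2.74 for Ifi27l2a. Neither difference passed, at -0.81 ± 0.19 (adjusted p = 0.171) and -1.42 ± 0.35 (adjusted p = 0.216).

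The control level itself was ordered by sex in a number of genes. In 19 of the 50 both control males lay above both control females, an order found in 20.4% of all tested genes. The reverse order held for 4 of the 50 (Ifi204, Ifi205, Oasl2 and Isg20), against 19.9% of all tested genes. Ifi205 differed most, at 23.6 in control males and 111 in control females. Among the 19, the widest were Oas1a, at 8.2 in control males and 2.15 in control females, Ifi27l2a, at 431 and 171, and Mx1, at 6.01 and 2.78 (means of 2 libraries each). Knockout males all lay above knockout females in 7 of the 50, against 5.19% of all tested genes. With 2 animals per sex in the control group, such an order rests on few animals.

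The libraries labelled knockout also differed among themselves. Among the 28 genes that rose, knockout M2 was the highest of the 6 libraries for 16 and knockout M1 the lowest for 13. Over all tested genes, M2 was highest for 19.5% and M1 lowest for 25.4%. Summed macrophage markers were 13809.9 normalized counts in knockout M2, the highest of the 6, 10019 in knockout M1 and 9570.1 in knockout M3. Whether this sum goes with the order of the libraries was not tested. Of all 50 genes, knockout M2 was highest for 21 and knockout M3 for 19, while M3 was highest for 7 of the 28 that rose. Over all tested genes, M3 was highest for 18.6%.

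Long and short genes of the list differed. Over the 50 genes the rank correlation (Spearman) of log2 fold change with the length of the longest annotated transcript was -0.64, and over 11973 tested genes with an annotated transcript it was -0.23. These are descriptions across genes, which share the same 10 libraries. Among short genes, Ifi27l2a (463 bp), Isg15 (756 bp) and Bst2 (792 bp) rose by 1.87, 1.69 and 1.16. Ifitm3 (678 bp) and Ifitm2 (655 bp) rose by 0.93 and 0.40, and Isg20 (1087 bp), at 0.43, did not pass. Both genes that fell, Parp14 (7417 bp) and Ifih1 (5470 bp), were long. With offsets for GC content and length fitted in each library, an alternative chosen after the data were seen, 29 of the 50 were higher and 1 lower, with a median of 0.50. Under these offsets the calls of Ifitm2, Mx2 and Parp14 were lost, and Herc6, Dtx3l and Iigp1 passed upward.

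**Figure D5:**
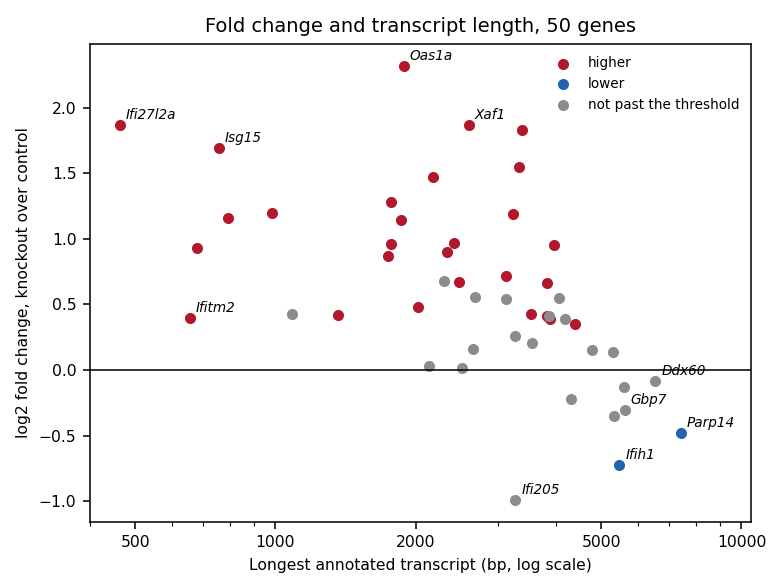
Log2 fold change, knockout over control, of the 50 genes against the length of their longest annotated transcript in bp on a log axis. The 28 genes that rose are red, the 2 that fell, Parp14 and Ifih1, are blue and at the long end, and the others are grey.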

How the data were processed

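RNA was measured in 10 libraries, grouped by their titles. Alignment to mm10 with TopHat2 2.0.11, counting with featureCounts, FastQC and DESeq2 are named in the submitters' processing notes. For the annotation, the strand setting and the handling of shared reads: not given in the sources used here. Reads were single-end of 51 bp from globin-depleted RNA, and the labels' protocols name both an mRNA kit and ribosome-depleted total RNA.

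The file headers give raw counts for each gene, deposited without scaling, and the tests used them unchanged. A normalized signal by the authors (each count over its library's size factor) stands beside them, and the levels in the text are these values. The deposited log2 fold change with its standard error, the linear fold ratio, the score called stat and the p-values are the authors' own comparison, and none is printed here.

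Tests used edgeR 4.0.16 in R 4.3.3: filterByExpr by group, TMM scaling, quasi-likelihood F-test, and Benjamini-Hochberg adjustment at 0.05 over 13191 genes. The sex effects came from a model with sex and group. Standard errors are the size of the log2 fold change divided by the square root of F. On simulated counts for 13191 genes, the genotype test found 46.3%, 89.6% and 98.5% of genes changed by 1.5, 2 and 4 times, with 17 false calls among 173. The sex interaction test found 1.49%, 13.4% and 77.3% of these, with 2 false calls among 63. Each simulation changed 67, 67 and 66 genes at these folds, all above a minimum of reads, whereas 5622 genes were called in the data. Its rates may not hold with so many changed genes or for genes of low count.

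The 50 genes, all lists and the naming rule were chosen with earlier results of these data known. All control values and the lowest, median and highest knockout values are given for the 3 genes of each role group with the smallest adjusted p and for those that fell. Named besides are up to 4 genes past the threshold in each other list and the 4 smallest adjusted p of the sex interaction. Other genes were added after their values were seen. Symbols outside the table were dropped, and 1 gene of the pathway lists is not reported here. Gene positions and lengths are from GENCODE M21 (GRCm38, the assembly mm10) by symbol, and promoter sequences are from RefSeq on GRCm38.p6.

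Libraries correlated on a log2 scale at 0.964 to 0.986 (Pearson) inside a group and at 0.888 to 0.949 across groups, and no replicates agreed within sampling noise (lowest chi-square per degree of freedom 4.22). Each library is its own animal by label, with no batch given. Alternatives were RLE or library size scaling, DESeq2 1.42.0, limma-voom 3.58.1, other filters, sex or a replicate block as a covariate, each sex alone, each library left out, and GC and length offsets.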

Additional observations from a re-analysis of the deposited data

Results flagged for a closer look

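In 6 of 100 tests, 1 for each gene and group, a single library stood apart from the rest of its group by Dixon's criterion, and chance flags about 1 in 20 groups. All 6 were knockout libraries. In knockout M2, Oas2 was at 109 normalized counts while the other 5 knockout libraries lay between 56.1 and 73.1. In knockout M1, Ifitm3 was at 567 against 758 to 861 in the others, and Ifi47 was at 47.7 against 71.1 to 83.7. In knockout M3, Gbp2 was at 429 against 254 to 282, Herc6 was at 141 against 84 to 103, and Ifi35 was at 149 against 163 to 169. Oas2, Ifitm3, Ifi47 and Ifi35 kept an adjusted p under 0.05 with any 1 library left out (edgeR).

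The effect of the knockout on Ifi205 differed between males and females by 4.57 log2 units, as tested with the interaction term (edgeR, adjusted p = 0.00406). It was higher in 3 of 3 knockout males than in either control male, and lower in 3 of 3 knockout females than in either control female.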

How the results depend on the processing

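The count of genes higher in the knockout, 28 of 50, stayed within 1.5 times of itself under every alternative run except the fit of males alone, which gave 13, and ran from 25 to 30 with 1 library left out. The count of genes lower, 2, was 1 with library size scaling, 4 with the replicate block, 4 in females alone, 0 in males alone, 1 with GC and length offsets and 1 to 3 with 1 library left out. Over all tested genes, males alone gave 1074 higher and 987 lower. The median of the 50 genes was 0.51, and over the alternatives it ran from 0.42, at a minimum of 50 counts where 42 of the 50 were tested, to 0.64. Library size scaling moved the median of all genes to 0.14 and the split of all calls to 3942 higher and 2020 lower, with 34 and 1 of the 50. The count of genes with a sex difference was 0 to 2 of the 50 with 1 library left out, and over all genes, 27, it was 16 with limma-voom, 13 at a minimum of 50 counts in at least 4 libraries and 7 to 77 with 1 library left out. The cause of these shifts was not tested.

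Signs turned only in genes that did not pass in the fit of all libraries. Irf1 was at -0.02 with the replicate block, -0.13 with GC and length offsets, and -0.05 to 0.13 with 1 library left out. Ddx60 was at 0.05 with library size scaling, 0.11 in males alone and 0.22 with the offsets. Ifi204 was at -0.16 in females alone and Ifi205 at 1.29 in males alone. With 1 library left out, Ifit1 ran from 0.00 to 0.37. Trim25 was at 0.00 with library size scaling, 0.12 in females alone and -0.23 to 0.01 with 1 library left out. Gbp2 was at -0.01 with limma-voom, -0.12 with the replicate block, -0.05 in females alone, -0.06 with the offsets and -0.12 to 0.07 with 1 library left out.

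Of the 30 genes called, 4 lost their call with some library left out (Ifit2, Mx2, Parp14 and Irgm2). The shared titles F1, F2, M1 and M2 did not pair the libraries. In that order, deviations of same-titled libraries correlated at -0.13, -0.05, -0.04 and 0.17, and 1 of 4 (M2) correlated best with its own title. The replicate block gave 27 higher and 4 lower. Low counts limit the precision for Oas1a, Mx1 and Zbp1. In simulation the sex interaction, with 2 control animals of each sex, recovered 13.4% of 2-fold differences.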
